A study of Mus musculus with 2 samples.

Results

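Npl and the 6 other genes of sialic acid metabolism followed here, Gne, Nans, Nanp, Cmas, Neu1 and Slc17a5, were taken by gene symbol from the 32285 genes of the count tables, so 7 of 32285 genes are described. The cells came from brains of C57BL/6J mice aged 18 months that carried the CD200R1-/- genotype (labelled KO) or were wild type (WT). No mouse was treated. Brains were perfused with saline and dissociated with enzymes, and cells bearing CD11b, an integrin of myeloid cells, were pulled out with magnetic particles before droplet-based 3′ single-cell RNA sequencing. The study asks what the receptor CD200R1, which restrains myeloid cells, does in neuroinflammation. The labels give 1 library per genotype and do not say how many mice went into each, so no difference between genotypes was tested. Intervals are 95% intervals that cover counting error alone. The set was chosen from its values here, since Npl had one of the highest KO to WT ratios of microglia-like cells in these 2 libraries, so that difference is a description with no test.

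Sialic acids are acidic sugars that cap the outer ends of glycoproteins and glycolipids, where Siglec receptors on microglia and macrophages read them. Cells make sialic acid from an amino sugar nucleotide: Gne makes and phosphorylates N-acetylmannosamine, Nans condenses it with phosphoenolpyruvate, Nanp removes the phosphate, and Cmas joins the product to CMP, the form that sialyltransferases use in the Golgi. In the lysosome the sialidase Neu1 cuts sialic acid from old glycoproteins and Slc17a5 (sialin) carries it out to the cytosol. There Npl, N-acetylneuraminate pyruvate lyase, splits it into N-acetylmannosamine and pyruvate, and Renbp passes the freed sugar on to N-acetylglucosamine.

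In the mouse GRCm38 build with GENCODE vM21 genes, Npl lies on chromosome 1 from 153503015 to 153550045 on the minus strand and has 12 exons. Gne is on chromosome 4 (44034075 to 44084177, minus strand), as is Nans (46489248 to 46503632, plus strand). Nanp is on chromosome 2 (151029685 to 151039398, minus strand), Cmas on chromosome 6 (142756686 to 142775714, plus strand), Neu1 on chromosome 17 (34931253 to 34935953, plus strand) and Slc17a5 on chromosome 9 (78536488 to 78588041, minus strand). Nanp overlaps Ninl on the same strand, so its counts are uncertain. Nans overlaps Trim14, which lies on the opposite strand.

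RefSeq start-site windows on GRCm38.p6 were at hand for 5 of the 7 members. The 250 bases before each start were searched on both strands for GAAANN followed directly by GAAA, the core of the element bound by interferon-activated factors, for TTCNNNGAA, the STAT dimer motif, and for CACGTG, the E-box found before many lysosomal genes. The first and second can overlap each other, and CACGTG and TTCNNNGAA read alike on both strands. The interferon element was in 2.98% of 32851 windows and in none of the members' windows, the STAT motif in 7.02% and in none of the members' windows, and the E-box in 6.02% and in that of Npl alone. The stretches below, with the motif in capitals, show the E-box of Npl beside that of Ctsa, the partner protein of Neu1, and for contrast the interferon element of Isg15 and Ifit3, whose transcripts serve to split cells further on. A match describes letters and not a bound site.
Npl, chr1:153549748-153549777, minus strand: cccgcgcggcccCACGTGgtcccgcagccc
Ctsa, chr2:164833743-164833772, plus strand: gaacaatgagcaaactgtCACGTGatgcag
Isg15, chr4:156200877-156200906, minus strand: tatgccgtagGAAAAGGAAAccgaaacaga
Ifit3, chr19:34583363-34583392, plus strand, where the element reads on the reverse strand: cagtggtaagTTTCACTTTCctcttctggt
In Npl the E-box begins 51 bases before the RefSeq start, a place that GENCODE counts as part of exon 1 (153549648 to 153550045).

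The KO and WT tables held 131196245 and 127429919 UMIs (counted molecules) in 19159 and 18228 barcodes, of which 17117 and 16460 were kept as cells. Only 103 barcodes occurred in both. The doublet caller marked 3.07% of KO and 0.849% of WT cells, against 15.3% and 14.6% predicted from the loading, so doublets remain. Of 30 joint clusters 21 were named from markers and 9, with 31.6% of KO and 38.7% of WT cells, were left unnamed. Microglia-like cells numbered 4192 in the KO and 3624 in the WT library and CNS-associated macrophage-like cells 939 and 616, while vascular, epithelial, glial and lymphoid classes were also present despite the CD11b selection. Levels are in CPM, a gene's UMIs per 1000000 UMIs of the same cells. Cd200r1, the targeted gene, stood at 12.1 CPM in KO and 12.8 CPM in WT cells over all kept cells, and at 24.1 CPM in KO and 35.3 CPM in WT macrophage-like cells. Where the deletion lies relative to the 3′ end read here is not given in the sources used here, so this count checks nothing, and every direction below goes by the libraries' labels.

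Npl was higher in the library labelled KO. In microglia-like cells it stood at 227 CPM in the KO library (9531 UMIs, interval 223 to 232 CPM), against 79.0 CPM in the WT library (3140 UMIs, 76.2 to 81.8 CPM). The ratio of KO to WT was 2.88 (2.763 to 2.996). CNS-associated macrophage-like cells were named from markers of the border-zone macrophages of the meninges, vessels and choroid plexus. In them Npl stood at 191 CPM in the KO library (1880 UMIs) and 80.4 CPM in the WT library (510 UMIs), a ratio of 2.37 (2.15 to 2.62). Of these UMIs, 1201 in KO and 216 in WT came from cells of the class that were also high in microglial markers, described below. On the log2 scale, after adding 10 CPM to both libraries, the ratios were 1.41 and 1.15. A gene with 50 or more UMIs was called higher or lower where, after that addition, the larger value exceeded the smaller by 25% or more. Npl thus took rank 9 of 14155 measured genes from the highest ratio in microglia-like cells and rank 5 of 11400 in macrophage-like cells.

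More KO than WT microglia-like cells had an Npl UMI, and more of them had several. At full depth 73.4% of KO and 45.7% of WT microglia-like cells had an Npl UMI, with median depths of 6743 and 8160 UMIs per cell. With each cell thinned to 1000 UMIs the shares were 19.9% of KO and 7.36% of WT cells. With each cell thinned to 2000 UMIs, 64.6% of KO and 84.5% of WT cells had no Npl UMI, 27.4% and 13.7% had 1, 6.51% and 1.61% had 2, and 1.44% and 0.182% had 3 or more (3945 KO and 3300 WT cells deep enough). In a separate random thinning of these cells to 2000 UMIs, the variance of Npl UMIs was 1.08 times the mean in each library, where counting alone gives 1. The means in that draw were 0.457 UMIs per cell in KO and 0.165 in WT, against 0.452 and 0.175 in the draw behind the shares above. At means so low the value stays near 1 even where cells differ, so it does not show how evenly Npl was spread. Both microglia-like clusters held the difference: the first had 227 CPM in KO and 74.3 CPM in WT cells (ratio 3.06, 2.90 to 3.23) and the other 227 CPM and 85.9 CPM (2.64, 2.48 to 2.81).

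**Figure D1:**
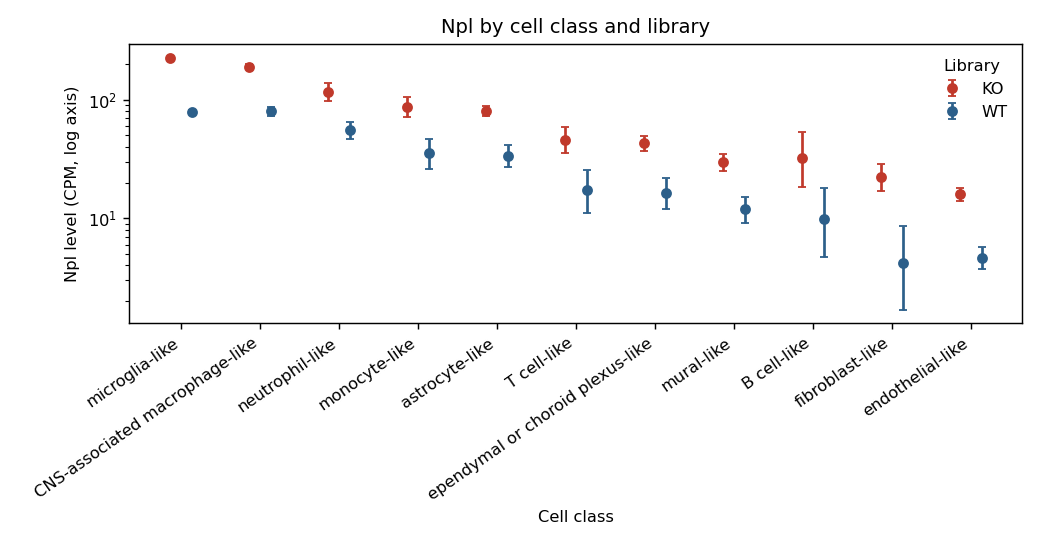
Npl in CPM (log axis) in 11 cell classes, with the KO library to the left of the WT library in each. Points are summed UMIs over the class and bars are exact Poisson 95% intervals for counting error. Microglia-like (227 CPM in KO, 79.0 CPM in WT) and CNS-associated macrophage-like cells (191 and 80.4 CPM) are at the top, and the KO point lies above the WT point in every class.

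Across the other classes Npl ran down from neutrophil-like cells (117 CPM in KO, 55.4 CPM in WT) to endothelial-like cells (15.9 CPM in KO, 4.65 CPM in WT). Between them were monocyte-like (87.8 and 35.5 CPM), astrocyte-like (80.9 and 33.6 CPM), T cell-like (45.9 and 17.2 CPM), ependymal or choroid plexus-like (42.9 and 16.4 CPM), mural-like (29.6 and 11.9 CPM) and fibroblast-like cells (22.3 and 4.16 CPM, with 7 UMIs in WT), KO before WT in each pair. B cell-like cells had 15 KO and 10 WT UMIs, too few to measure. In this order the range from WT to KO of every class overlapped that of its neighbour. The gap between the libraries widens these ranges for Npl, so this overlap does not show that levels were alike within a library. Macrophage-like cells (182 to 200 CPM in KO, 73.5 to 87.6 CPM in WT) stood above neutrophil-like cells (98.0 to 139 CPM in KO, 46.7 to 65.2 CPM in WT). Npl was called higher in KO in all 10 classes with 50 or more UMIs, with ratios between 2.12 (neutrophil-like) and 5.36 (fibroblast-like). The share of all measured genes called higher was 1.23% in microglia-like, 2.72% in macrophage-like, 2.13% in endothelial-like, 4.12% in mural-like, 6.88% in ependymal or choroid plexus-like, 9.2% in fibroblast-like, 11.8% in astrocyte-like, 11.8% in monocyte-like, 11.9% in neutrophil-like and 17.6% in T cell-like cells. When cells were instead named one by one from marker UMIs, Npl turned lower in KO astrocyte-like (log2 −0.80, 22 UMIs in all) and T cell-like cells (−0.43, 4 UMIs in all). In endothelial-like cells adding 50 CPM in place of 10 ended the call (log2 0.27).

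These levels ran beside those of microglial RNA in the same cells. The summed level of 9 microglial markers (among them P2ry12, Tmem119 and Sall1) was expressed as a share of its level in microglia-like cells of the same library and set beside the same share for Npl. In endothelial-like cells Npl was at 6.99% in KO and 5.88% in WT, and the markers were at 7.53% in KO and 6.97% in WT. In ependymal or choroid plexus-like cells Npl was at 18.9% in KO and 20.8% in WT, with the markers at 18.6% and 19.3%. In mural-like cells Npl was at 13.04% in KO and 15.03% in WT, with the markers at 14.4% and 17.1%. Of 19 classes and unnamed clusters other than microglia-like cells, Npl exceeded the markers beyond its counting interval in both libraries in 4: macrophage-like cells and unnamed clusters 4, 12 and 13. In WT alone it also exceeded them in 3 classes. Astrocyte-like cells had Npl at 35.6% in KO and 42.6% in WT, with the markers at 40.5% in KO and 29.5% in WT. T cell-like cells had it at 20.2% in KO and 21.8% in WT, with the markers at 24.1% and 14.1%, and neutrophil-like cells at 51.6% in KO and 70.1% in WT, with the markers at 57.2% and 58.2%. In the classes where Npl exceeded the markers in neither library, a level of its own could not be told apart from microglial RNA in the same droplets. The same held for the KO level of astrocyte-like, T cell-like and neutrophil-like cells, where Npl did not exceed the markers in KO. The KO to WT ratios of all these classes are given as values only.

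**Figure D2:**
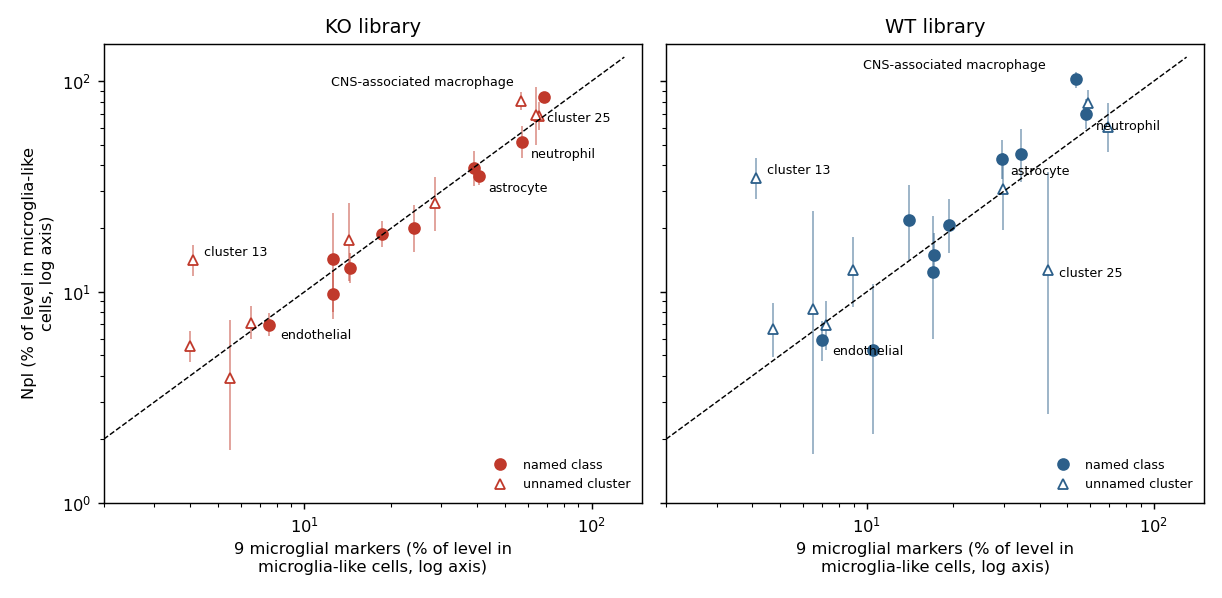
Npl (vertical, log axis) against the sum of 9 microglial markers (horizontal, log axis), each as a percentage of its level in microglia-like cells of the same library, KO at left and WT at right. Filled circles are named classes, open triangles unnamed clusters, bars 95% counting intervals of Npl, and the dashed line marks equal shares. Most points lie near the line, whereas cluster 13 lies above it in both libraries (14.2% against 4.09% in KO, 34.8% against 4.11% in WT).

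Macrophage-like cells were the class in which Npl stood above the microglial markers with a clear margin. Npl was at 84.0% of its microglia-like level in KO and 102% in WT, while the markers were at 68.0% in KO and 53.7% in WT. All 10 microglial markers were detected in the class in both libraries, with a summed level of 10889 CPM in KO and 8521 CPM in WT, so microglial RNA differed between the libraries too. Cells of the class were therefore divided by their own microglial markers, a division chosen after seeing the data. Those with under 50 marker UMIs per 10000 (431 KO and 365 WT cells) held the markers at 19.4% and 19.1% of the microglia-like level. In them Npl stood at 141 CPM in KO (126 to 158) and 70.2 CPM in WT (60.0 to 81.6), a ratio of 2.01 (1.66 to 2.44). In those with under 25 (168 KO and 140 WT cells) it stood at 121 CPM in KO and 64.5 CPM in WT, a ratio of 1.88 (1.38 to 2.57). At 100 or more (259 KO and 97 WT cells) the values were 222 CPM in KO and 91.1 CPM in WT (ratio 2.44, 2.11 to 2.83). These cells held 1201 of the class's 1880 Npl UMIs in KO and 216 of 510 in WT. Their microglial markers were at 92.4% of the microglia-like level in KO and 87.1% in WT. Their macrophage markers summed to 1535 CPM in KO and 1913 CPM in WT, against 8046 and 7443 CPM in cells with under 50 microglial marker UMIs. Between the lowest and highest bins, the ratio was 2.09 (1.63 to 2.68) at 25 to 50 and 2.05 (1.67 to 2.53) at 50 to 100. The ratio was thus smallest in the lowest bin and largest in the highest, but their intervals overlapped and the order between was not steady. In the lowest bin the microglial markers stood at 11.1% of the microglia-like level in KO and 11.2% in WT. The part of the remaining microglial RNA in these values was not tested.

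Cluster 13, unnamed because it carried 7 ependymal or choroid plexus markers and 4 astrocyte markers, showed little of the difference. It held 197 KO and 108 WT cells. Npl stood at 32.3 CPM in KO (139 UMIs) and 27.5 CPM in WT (82 UMIs), and 44.2% of KO and 46.3% of WT cells had an Npl UMI. The ratio was 1.17, with an interval of 0.887 to 1.56 that ends short of the 2.88 of microglia-like cells. In cluster 4, where no fixed marker passed the naming rule, Npl was at 182 CPM in KO and 62.4 CPM in WT. Microglial RNA was not absent there. The 9 microglial markers were at 56.9% of the microglia-like level in KO and 58.8% in WT, with Npl at 80.3% and 79.0%. In cluster 12, which mixed endothelial and mural markers, it was at 12.6 CPM in KO and 5.26 CPM in WT. Cluster 20, unnamed because it carried 5 olfactory ensheathing and 5 astrocyte markers, had 9 Npl UMIs in KO and 29 in WT, under the 50 needed for a call. It stood at 8.81 CPM in KO and 10.00 CPM in WT, a ratio of 0.882 (0.367 to 1.91).

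The genes that release sialic acid into the cytosol, where Npl acts, were close to equal in the libraries. Neu1 stood at 37.3 CPM in KO and 36.1 CPM in WT microglia-like cells (1567 and 1437 UMIs, ratio 1.03, 0.961 to 1.11), and at 46.1 CPM in KO and 46.3 CPM in WT macrophage-like cells (0.994, 0.857 to 1.16). Slc17a5 stood at 42.9 CPM in KO and 43.0 CPM in WT microglia-like cells (1802 and 1711 UMIs, ratio 0.998, 0.934 to 1.07). In macrophage-like cells it was at 41.1 CPM in KO and 45.4 CPM in WT (0.905, 0.777 to 1.06). Renbp, which takes the sugar on after Npl, was at 66.3 CPM in KO and 68.2 CPM in WT microglia-like cells (0.973, 0.922 to 1.03) and at 71.7 CPM in KO and 65.6 CPM in WT macrophage-like cells (1.09, 0.968 to 1.24).

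The 4 genes of synthesis and activation were as close. Gne, the entry step, was at 10.0 CPM in KO and 10.7 CPM in WT microglia-like cells (ratio 0.937, 0.816 to 1.07). Nans was at 22.3 CPM in both libraries (0.999, 0.910 to 1.10). Nanp was at 5.91 CPM in KO and 5.58 CPM in WT (1.06, 0.880 to 1.27). Cmas was at 51.7 CPM in KO and 48.5 CPM in WT (1.07, 1.00 to 1.14). In macrophage-like cells Gne was at 8.83 CPM in KO and 8.19 CPM in WT, Nans at 23.0 and 22.1 CPM, Nanp at 6.80 and 6.62 CPM, and Cmas at 42.0 and 39.1 CPM. With fewer UMIs there (109 for Nanp over both libraries), intervals were wider, and that of Gne ran from 0.755 to 1.55.

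In microglia-like cells all 7 members had 50 or more UMIs. Npl was called there, but the set was chosen for that ratio, so its call is not counted against the background. None of the 6 other members was called, where 2.63% of all 14155 measured genes were called in either direction. In macrophage-like cells Npl was again called and none of the 6 others, where 9.49% of 11400 genes were called. The median of all measured genes was 0.00 on the log2 scale in both classes.

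**Figure D3:**
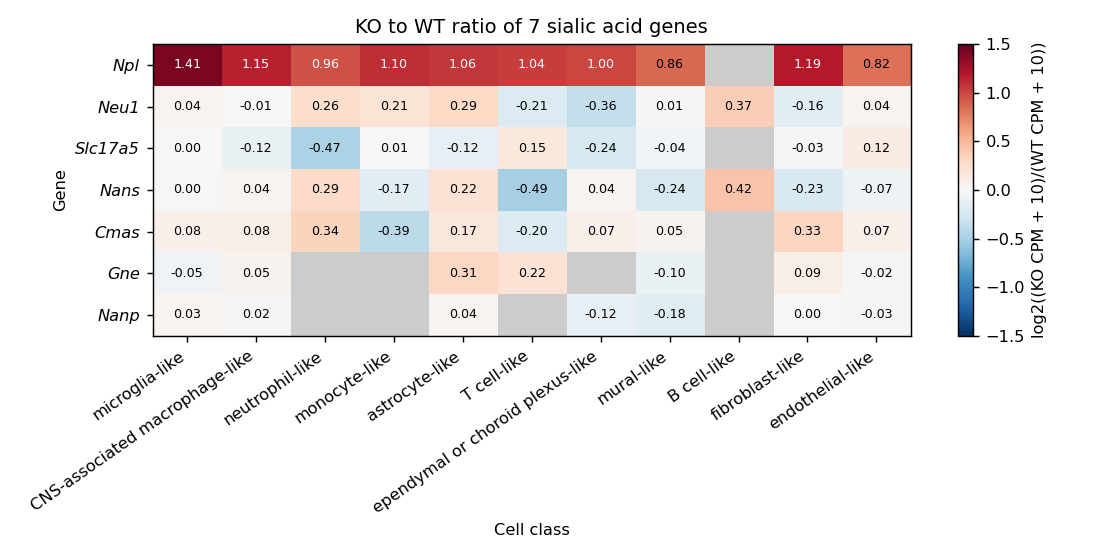
KO to WT ratio on the log2 scale, after adding 10 CPM to each library, for the 7 genes (rows) in 11 cell classes (columns). Red is higher in KO, blue is lower in KO, and grey cells had under 50 UMIs over both libraries. The Npl row is red in all 10 measured classes (0.82 to 1.41), and the other rows are near 0 in the microglia-like and CNS-associated macrophage-like columns.

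Across all classes the 6 genes each had their own order of levels, ranked here by the geometric mean of both libraries. Gne was highest in mural-like cells (32.5 CPM in KO, 35.4 CPM in WT), against 19.2 CPM in KO and 19.6 CPM in WT endothelial-like cells and 7.11 CPM in KO and 3.50 CPM in WT ependymal or choroid plexus-like cells. Slc17a5 was highest in the macrophage-like and microglia-like cells, which overlapped each other and were separate from astrocyte-like cells (30.5 CPM in KO, 34.0 CPM in WT). Neu1 ranked first in neutrophil-like cells (57.3 CPM in KO, 46.2 CPM in WT), which overlapped macrophage-like cells (46.1 CPM in KO, 46.3 CPM in WT), and lowest in endothelial-like cells (18.9 and 18.1 CPM). Cmas ran from 47.4 CPM in KO and 65.2 CPM in WT monocyte-like cells, which overlapped microglia-like cells, down to 27.4 CPM in KO and 25.5 CPM in WT ependymal or choroid plexus-like cells. Nans ranked first in B cell-like cells (45.6 CPM in KO, 31.4 CPM in WT), which overlapped T cell-like cells (22.6 CPM in KO, 35.9 CPM in WT), and lowest in ependymal or choroid plexus-like cells (8.58 and 8.04 CPM). Nanp was at the top in fibroblast-like cells (14.9 CPM in both libraries) and in ependymal or choroid plexus-like cells (13.4 CPM in KO, 15.4 CPM in WT), which overlapped.

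Among these 6 genes, 8 differences were called in other classes, on 52 to 275 UMIs over both libraries. Neu1 was lower in KO ependymal or choroid plexus-like cells, with 31.6 CPM in KO and 43.4 CPM in WT (275 UMIs in all, ratio 0.728, 0.571 to 0.931). Nans was lower in KO T cell-like cells, with 31 UMIs in KO and 52 UMIs in WT (0.630, 0.390 to 1.00), and Slc17a5 was lower in KO neutrophil-like cells, with 22 UMIs in KO and 81 UMIs in WT (0.632, 0.375 to 1.02). Cmas was lower in monocyte-like and higher in fibroblast-like and neutrophil-like cells, and Nans and Neu1 were higher in B cell-like cells. In those classes the share of all genes called in either direction was 15.1% in ependymal or choroid plexus-like, 20.4% in fibroblast-like, 26.5% in monocyte-like, 26.9% in T cell-like, 41.2% in neutrophil-like and 43.9% in B cell-like cells. Such calls were thus common among all genes there. Only 2 members were measured in B cell-like cells, and both were called, too few to set against that share. With 50 CPM added in place of 10, 0 of the 8 were called. With 1 CPM added, and at Leiden resolution 0.5, 8 of 8 stayed past the fold. At resolution 2, with doublets kept, or with scaling by the median ratio of expressed genes, 7 of 8 did. Without the filter on cells 6 of 8 did, and with cells thinned to 1000 UMIs 5 of 8. The stricter filter gave values for 7, of which 3 stayed past it. Naming cells one by one gave a value for 1, which did not. The median of all genes was itself −0.11 on the log2 scale in neutrophil-like and B cell-like cells.

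Genes that feed, use or recycle sialic acid were examined as 4 lists. Of 9 further genes of synthesis and activation, 7 were measured in microglia-like cells and none was called (median log2 −0.02). They ran from Slc35a1, which carries CMP-sialic acid into the Golgi (18.5 CPM in KO, 18.1 CPM in WT), to Pgm3, a phosphoglucomutase of amino sugars (11.7 CPM in KO, 13.5 CPM in WT). In macrophage-like cells 8 were measured and none was called (median −0.05), from Slc35a1 (20.5 CPM in KO, 16.9 CPM in WT) to Nagk, the N-acetylglucosamine kinase (41.0 CPM in KO, 48.7 CPM in WT). Of 10 genes that remove, break down or modify sialic acid, 8 were measured in microglia-like and 7 in macrophage-like cells and none was called in either (medians 0.01 and −0.04). Gnpda2 and Amdhd2, which act on the recycled amino sugar, marked the ends in microglia-like cells, with 37.0 CPM in KO and 32.7 CPM in WT, and 22.4 CPM in KO and 25.8 CPM in WT.

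Sialyltransferases, which place sialic acid on glycans, showed a few differences. Of 20, 16 were measured in microglia-like cells, 1 was higher in KO and none lower (median log2 0.03), where 1.23% of all measured genes were higher and 1.4% lower. This was St8sia1, which builds disialylated gangliosides, at 13.5 CPM in KO and 7.90 CPM in WT (ratio 1.71). St6gal1, which adds sialic acid in the linkage bound by Cd22, was at 94.8 CPM in KO and 119 CPM in WT (log2 −0.29, short of the threshold). In macrophage-like cells 14 were measured, 3 were higher and 4 lower (median −0.01), where 2.72% of all measured genes were higher and 6.77% lower. St3gal5, which makes the first ganglioside of the series, was higher at 135 CPM in KO and 101 CPM in WT, as was St3gal2 at 40.2 CPM in KO and 29.8 CPM in WT. St6galnac3 was lower at 10.8 CPM in KO and 22.4 CPM in WT, as was St3gal1 at 20.2 CPM in KO and 29.9 CPM in WT. St3gal5 was also higher in microglia-like than in macrophage-like cells of both libraries (208 CPM in KO and 189 CPM in WT microglia-like cells), and the share of microglial RNA in the macrophage-like class differed between libraries as given above. Its part in these values was not tested.

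The Siglec receptors that read sialic acid, with their adaptors, counted 12 genes. In microglia-like cells 11 were measured and none was called (median log2 −0.02). At the high end Ptpn11 was at 39.0 CPM in KO and 33.0 CPM in WT, and Siglec1 at 2.48 CPM in KO and 1.16 CPM in WT. Siglec1 had 104 UMIs in KO and 46 UMIs in WT, a ratio of 2.14 whose counting interval lay wholly on the KO side. Its levels were far under the 10 CPM added, so its log2 value was 0.16, short of the threshold. At the low end Cd33 was at 189 CPM in KO and 203 CPM in WT, and Siglece at 20.4 CPM in KO and 23.6 CPM in WT. In macrophage-like cells 10 were measured, with Siglech higher (733 CPM in KO, 574 CPM in WT) and Cd22 lower (13.8 CPM in KO, 21.1 CPM in WT), where 9.49% of all measured genes were called in either direction. Siglech is itself a microglial marker.

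The KO library also held more transcripts of interferon-induced genes, so Npl was read within cells of like interferon load. Microglia-like cells thinned to 2000 UMIs were binned by their UMIs of 20 such genes, among them Isg15 and Ifit3. None of these UMIs were found in 4.77% of KO and 43.3% of WT cells. In those cells Npl stood at 210 CPM in KO (188 cells) and 92.3 CPM in WT (1430 cells), a ratio of 2.28 (1.75 to 2.94). In cells with 3 or more it stood at 218 CPM in KO (2732 cells) and 94.2 CPM in WT (451 cells), a ratio of 2.31 (1.85 to 2.92). Bins of 1 and 2 UMIs gave ratios of 2.92 and 3.70. The bin of 3 or more is wide, with 6 to 9 UMIs in 20.6% of KO and 1.94% of WT cells. Cells with 3 to 5 gave a ratio of 2.21 and those with 6 to 9 a ratio of 3.68. At 10 or more Npl stood at 218 CPM in KO (186 cells) and 135 CPM in WT (37 cells), a ratio of 1.61 (0.833 to 3.49). Within each library the ratio of Npl in cells with 3 or more to that in cells with none was 1.04 in KO (0.825 to 1.32) and 1.02 in WT (0.790 to 1.31). For microglia-like cells with 10 or more over those with 6 to 9 it was 0.945 in KO (0.734 to 1.21) and 2.16 in WT (0.768 to 6.30). In macrophage-like cells with 3 or more, Npl was at 168 CPM in KO and 66.0 CPM in WT (2.54, 1.84 to 3.60). Within each library, macrophage-like cells with 10 or more over those with 6 to 9 gave an Npl ratio of 0.694 in KO (0.517 to 0.931) and 0.441 in WT (0.143 to 1.16).

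**Figure D4:**
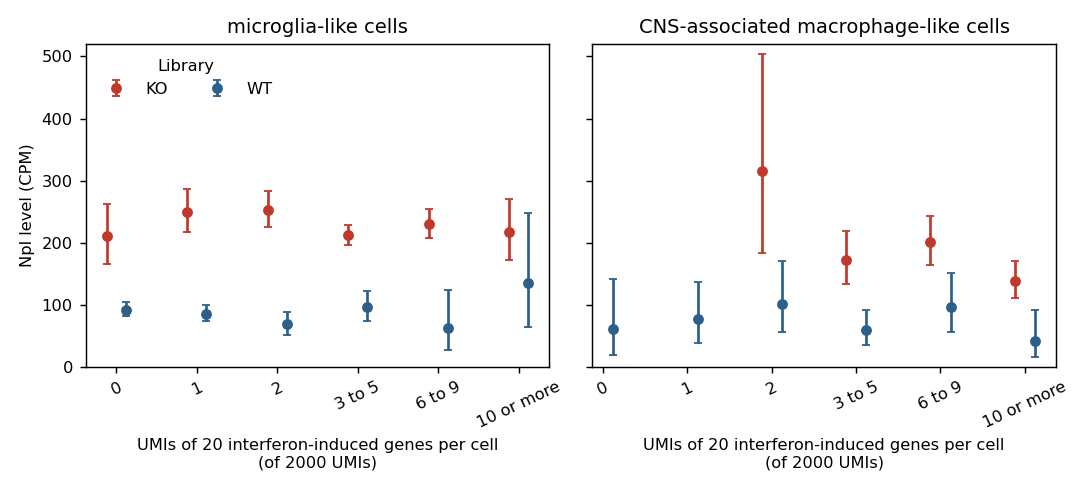
Npl in CPM (vertical) in microglia-like (left) and CNS-associated macrophage-like cells (right), binned by the UMIs of 20 interferon-induced genes per cell after thinning to 2000 UMIs, with KO left of WT in each bin. Bars are exact Poisson 95% intervals and points from under 20 cells are not drawn. In microglia-like cells the KO points lie above the WT points in each bin, at 210 CPM in KO and 92.3 CPM in WT where no such UMI was found.

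Other splits of microglia-like cells gave the same direction. By 12 genes of the dissociation response, cells with none had Npl at 252 CPM in KO and 105 CPM in WT (ratio 2.39, 1.36 to 4.45) and cells with 3 or more had 226 CPM in KO and 88.4 CPM in WT (2.55, 2.31 to 2.83). By 10 disease-associated genes, cells with 10 or more UMIs had 232 CPM in KO and 84.0 CPM in WT (2.77, 2.49 to 3.08), and cells with 6 to 9 had 190 CPM in KO and 94.3 CPM in WT (2.02, 1.57 to 2.60). Cells with 3 to 5 (82 KO and 102 WT cells) had 220 CPM in KO and 152 CPM in WT, a smaller ratio of 1.44 (0.869 to 2.41). Markers of other classes were low in microglia-like cells apart from those of the ependymal or choroid plexus list, which summed to 2994 CPM in KO and 1928 CPM in WT. Npl in ependymal or choroid plexus-like cells themselves was under that in microglia-like cells in both libraries.

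Some protein-coding genes whose start lies within 500 kb of that of Npl on chromosome 1 were read in the same microglia-like cells. Dhx9, an RNA helicase and the nearest with 50 or more UMIs, was at 162 CPM in KO and 166 CPM in WT (ratio 0.973, 0.940 to 1.01). Glul, glutamine synthetase, was at 1147 CPM in KO and 935 CPM in WT (1.23, 1.21 to 1.24), just short of the threshold. Lamc1, a laminin chain, was at 14.6 CPM in KO and 13.2 CPM in WT (1.11, 0.983 to 1.246).

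Genes with a pattern like that of Npl were ranked by Pearson's r of log2(CPM + 10) over the 22 class-by-library values, among 13830 genes with 500 or more UMIs. The 22 values share 2 libraries and their microglial RNA, so r is a description. The closest to Npl were Crybb1 (r = 0.948), G530011O06Rik (0.944), Ppfia4 (0.923), Ctss (0.922), which encodes a lysosomal protease, and Nectin4 (0.919). For the other members the closest were Cpm, a carboxypeptidase gene, for Gne (0.9004), Fbxo38 for Nans (0.932), Cops6 for Nanp (0.882), Arpc4 for Cmas (0.866), Stxbp2 for Neu1 (0.820) and Ptpra for Slc17a5 (0.924), followed by Trak2 (0.893), AI506816 (0.878), Cdkn1c (0.864), Gpatch2l (0.854), Rbm47 (0.810) and Lmln (0.918) in the same order.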

How the data were processed

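The deposited matrices hold whole-number UMI counts per gene and barcode that the authors made. The submitters' processing notes name Cell Ranger 7.0.1, STAR, Seurat 3.1.1 and the builds GRCm38 and mm10, and the annotation release is not given in the sources used here. Barcodes with under 300 genes, under 500 UMIs or over 10% of UMIs from mitochondrial genes were dropped. Scrublet in scanpy 1.11.5 removed doublets per library, at an expected rate of 0.8% per 1000 barcodes. Both libraries were clustered together without integration (2000 variable genes, without the 7 members; 30 components; 15 neighbours; Leiden at resolution 1). A class name needed 3 or more of that class's markers, each seen in 25% or more of the cluster's cells and 1 or more higher there on the log2 scale. Classes with at least 50 cells per library were compared.

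UMIs were summed per class and library and divided by the class total to give CPM. Calls needed 50 UMIs over both libraries and an excess of 25% or more in (CPM + 10). Intervals are exact Poisson for CPM and exact conditional binomial for ratios. With 1 library per genotype no test was possible, and replicates could not be compared. The calculation was checked on Poisson counts simulated for microglia-like cells, with 200 genes changed. That check covers neither the smaller classes, genes near 50 UMIs nor variation between libraries.

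The members and lists were chosen with earlier results of these data known. Genes named are the 7 members and Renbp in every class, up to 2 genes at each end of each list in microglia-like and macrophage-like cells, some neighbours of Npl, and the genes of closest pattern (5 for Npl, 2 for each other member). Other genes were named after their values were seen. Sparc, which vascular cells also express, was left out of the microglial markers set beside Npl after seeing the data. Results for some genes near Npl are not reported here.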

Additional observations from a re-analysis of the deposited data

How the results depend on the processing

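The higher Npl in KO microglia-like and macrophage-like cells kept its direction and its call under every alternative that gave a value. In microglia-like cells its log2 ratio, 1.41 as reported, was 1.51 with 1 CPM added, 1.10 with 50 CPM added and 1.49 with cells thinned to 1000 UMIs. In macrophage-like cells, 1.15 as reported, it was 0.88 with 50 CPM added, 0.90 with thinned cells and 0.91 in the cells with few microglial markers, an alternative chosen after seeing the data. The number of members called in microglia-like cells was 1 under each alternative. Over 824 values of the 7 members and Renbp in all classes, 741 were counted as the same within counting error, 79 as moved and 4 as reversed. These counts do not hold every change of sign as a reversal. In B cell-like cells with thinned cells, Cmas went from 0.11 to −2.13 (5 UMIs), counted as moved. Slc17a5 went there from −0.19 to 0.48 (2 UMIs), counted as the same, as was Nans with 0 UMIs. The 4 counted as reversed were Neu1 in B cell-like cells with thinned cells (−0.36), and, with cells named one by one from marker UMIs, Npl in T cell-like (−0.43) and astrocyte-like cells (−0.80) and Nans in T cell-like cells (0.25). Their cause was not tested, and each rests on 4 to 35 UMIs. Naming cells one by one left 60 KO and 49 WT macrophage-like cells and gave values for 5 classes, macrophages not among them, and the stricter filter gave none for fibroblast-like cells. No paired analysis was possible because each genotype has 1 library, which also means that no library could be left out. Depth limits the B cell-like, monocyte-like and neutrophil-like classes, which held as few as 75 cells in a library.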

Other observations

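Renbp, the enzyme of the step after Npl, was at 37.8 CPM in KO and 25.4 CPM in WT astrocyte-like cells, a ratio of 1.49, and was called higher there and in no other class with 50 or more UMIs. The call ended without the filter on cells (log2 0.26), with doublets kept (0.20), at Leiden resolution 2 (0.30), with cells named one by one (0.20) and with 50 CPM added (0.22). Cluster 25, an unnamed cluster with 4 olfactory ensheathing and 2 astrocyte markers, had 41 Npl UMIs in 89 KO cells and 3 Npl UMIs in 161 WT cells, or 158 CPM in KO and 10.0 CPM in WT (ratio 15.7, 5.01 to 79.3). Its 9 microglial markers were at 64.0% of the microglia-like level in KO and 42.9% in WT, and the value rests on 3 WT UMIs.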
